A study of Mus musculus with 4 samples.

Results

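The proteasome genes were followed in the liver of mice that lack Tm7sf2, a membrane protein of the nuclear envelope and endoplasmic reticulum that reduces sterols. Members were the genes named Psma, Psmb, Psmc, Psmd, Psme, Psmf or Psmg with a number, together with the assembly factor Pomp, the transcription factor Nfe2l1 and the cap deubiquitinase Uchl5. This gave 50 of the 19504 gene names on the array, read by 80 probe sets, each a group of short oligonucleotides against 1 transcript region. Each gene was taken at the probe set with the highest mean over all arrays. Psma5, Psmb3, Adrm1 and Psme2 were not found under these names and are not analysed here.

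Both groups were male mice aged 6 weeks on a C57BL/6 background, 1 wild type (WT) and the other carrying the backcrossed knockout of Tm7sf2 (Tm7sf2-KO, or KO). Total RNA of whole liver was read on 4 Affymetrix MOE430 v2 arrays, 2 of each genotype and with 1 colour. Whether the 2 arrays of a genotype stand for 2 mice or for 1 RNA hybridised again is not stated, so p-values reflect array-to-array spread alone, possibly technical. Nothing in the sources limits the knockout to the liver, and whole liver mixes hepatocytes with other cells.

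The proteasome is the protease that degrades most proteins tagged with ubiquitin. A barrel of alpha and beta rings, the core, holds the cutting sites inside, and a cap made of an ATPase ring, scaffolds and a lid recognises the ubiquitin chain, removes it, unfolds the substrate and feeds it into the barrel. Interferon and immune cells bring in a variant, the immunoproteasome, in which Psmb9, Psmb10 and Psmb8 take the places of the catalytic subunits Psmb6, Psmb7 and Psmb5, and which makes peptides suited to MHC class I. Nfe2l1 is the transcription factor that raises proteasome genes when proteasome capacity falls short.

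The replaceable catalytic subunits are the members on which the comparison of core and immunoproteasome turns, so the DNA around their starts is shown for those found among RefSeq promoters (GRCm38.p6), from 150 bases before to 50 bases after the start that RefSeq annotates, 5′ to 3′ on the strand of the gene. Capitals mark the core letters of the antioxidant response element, the kind of site Nfe2l1 binds (TGACNNNGC), in Psmb5 and Psmb6, and those of the interferon gamma activated site (TTCNNNGAA), in Psmb8.
Psmb6 (chr11:70525207-70525406, plus strand): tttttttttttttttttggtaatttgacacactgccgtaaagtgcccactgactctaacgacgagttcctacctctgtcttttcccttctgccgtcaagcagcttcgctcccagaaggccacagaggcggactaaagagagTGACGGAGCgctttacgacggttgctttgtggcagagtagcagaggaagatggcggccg
Psmb5 (chr14:54617946-54618145, minus strand): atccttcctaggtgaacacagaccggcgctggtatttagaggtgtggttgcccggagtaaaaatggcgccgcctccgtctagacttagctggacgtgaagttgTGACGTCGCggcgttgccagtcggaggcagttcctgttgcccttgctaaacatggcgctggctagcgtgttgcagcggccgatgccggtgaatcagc
Psmb9 (chr17:34187281-34187480, minus strand): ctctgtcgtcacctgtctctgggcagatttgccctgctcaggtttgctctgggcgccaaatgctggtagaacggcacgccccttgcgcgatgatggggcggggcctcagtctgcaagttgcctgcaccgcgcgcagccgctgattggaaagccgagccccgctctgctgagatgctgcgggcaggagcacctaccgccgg
Psmb10 (chr8:105938343-105938542, minus strand): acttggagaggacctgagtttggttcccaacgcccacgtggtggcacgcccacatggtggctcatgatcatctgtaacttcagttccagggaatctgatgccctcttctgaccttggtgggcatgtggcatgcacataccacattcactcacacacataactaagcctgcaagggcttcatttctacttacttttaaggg
Psmb8 (chr17:34198045-34198244, plus strand): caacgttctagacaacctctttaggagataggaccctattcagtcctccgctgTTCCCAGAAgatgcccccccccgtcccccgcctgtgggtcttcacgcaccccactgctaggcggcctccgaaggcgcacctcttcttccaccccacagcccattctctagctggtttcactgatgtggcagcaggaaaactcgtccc
The marked letters began 9 bases before the start in Psmb6, 47 before it in Psmb5 and 97 before it in Psmb8. Psmb9 held 1 CCAAT box and none of the other motifs searched, and Psmb10 held none of them. Motifs were searched on both strands of windows running from 250 bases before to 50 after the start, each motif on its own, so that letters could count for more than 1. Windows were found for 42 of the 50 members. The antioxidant response core was in 7 of 42 (16.7%) against 14.0% of 27025 genes, the interferon gamma core in 3 of 42 (7.14%) against 9.55%, the core of the interferon-stimulated response element (GAAA, any pair of bases, GAAA) in 4 of 42 (9.52%) against 3.99%, and CCAAT in 15 of 42 (35.7%) against 41.1%. A match is a description of letters and not of a bound site.

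The array medians were between 6.66 and 6.67 on the log2 scale. Tm7sf2 itself, on chromosome 19, read 10.25 and 10.27 in WT and 7.47 and 7.55 in KO, a change of -2.75 (SE 0.08, limma adjusted p = 1.65e-06), while its other probe set changed by 0.04 (adjusted p = 0.878). Of 45037 probe sets, 171 (0.38%) were higher and 147 (0.326%) lower in KO past both thresholds, an adjusted p under 0.05 and a log2 change of at least 0.5 in size, which is 1.41-fold. At the brightest probe set of each named gene the shares were 0.543% higher and 0.487% lower. All changes are KO minus WT on the log2 scale and relative to the bulk of genes. When the arrays were centred on added hybridization controls instead, the median of all probe sets moved from 0.01 to -0.39 and all 50 members lay below 0 (-0.57 to -0.05). The defining hepatocyte markers measured (9 of 10 listed, among them Alb, Ttr and Apoa1) had mean levels from 12.25 to 14.71, and 0 of them passed both thresholds.

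No proteasome gene was called. limma put 0 of the 50 members past both thresholds in either direction, and 0 at 5% FDR (an adjusted p under 0.05) alone, against 0.923% higher and 0.831% lower among all named genes, and 0 of their 80 probe sets passed either. The changes ran from -0.18 (Psmc2) to 0.34 (Psmb10) with a median of -0.00202, and they were divided evenly, 25 above 0 and 25 below. At an unadjusted p under 0.05 there were 6 members higher in KO (12%, against 8.39% of all named genes) and 1 lower (2%, against 6.79%). Among genes with a mean level of at least 7, where 46 members lie, the shares were 13.0% of members and 12.7% of all named genes higher, and 2.17% and 9.94% lower. Without WT replicate 1 the number higher was 3, and without WT replicate 2 or Tm7sf2-KO replicate 2 the number lower was 0. The KO arrays lay wholly above the WT arrays for 11 members (22%, against 24% of all named genes) and wholly below for 14 (28%, against 19.9%), and they overlapped for 25. With a mean level of at least 7, the shares were 23.9% of members and 29.3% of named genes above, and 28.3% and 23.5% below. In bulk liver, fewer cells of a type and less RNA per cell cannot be told apart in any of these values.

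The confidence intervals give the precision of each change relative to the bulk of genes, from array-to-array spread alone. As that spread may be technical, they do not bound a difference between mice. The 95% confidence interval lay inside a change of 0.5 in either direction for 49 of 50 members (98%), against 94.5% of all named genes. Among genes with a mean level of at least 7 the shares were 97.8% (45 of 46 members) and 91.0% (9077 of 9972 genes). The member whose interval reached beyond was Psmb10, with an upper bound of 0.52, and the lowest bound of any member was -0.40. These bounds are for the brightest probe set of each gene. The second Psme3 probe set, with a mean of 7.66, had a lower bound of -0.502. The median size of the change was 0.0951 over members and 0.0831 over all named genes. Between single replicates the median difference was 0.0823 in WT and 0.0760 in KO over members, and 0.0840 and 0.0883 over all named genes. A change compares means of 2 arrays and a replicate difference compares single arrays, so the former is the smaller of them where nothing differs.

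**Figure D1:**
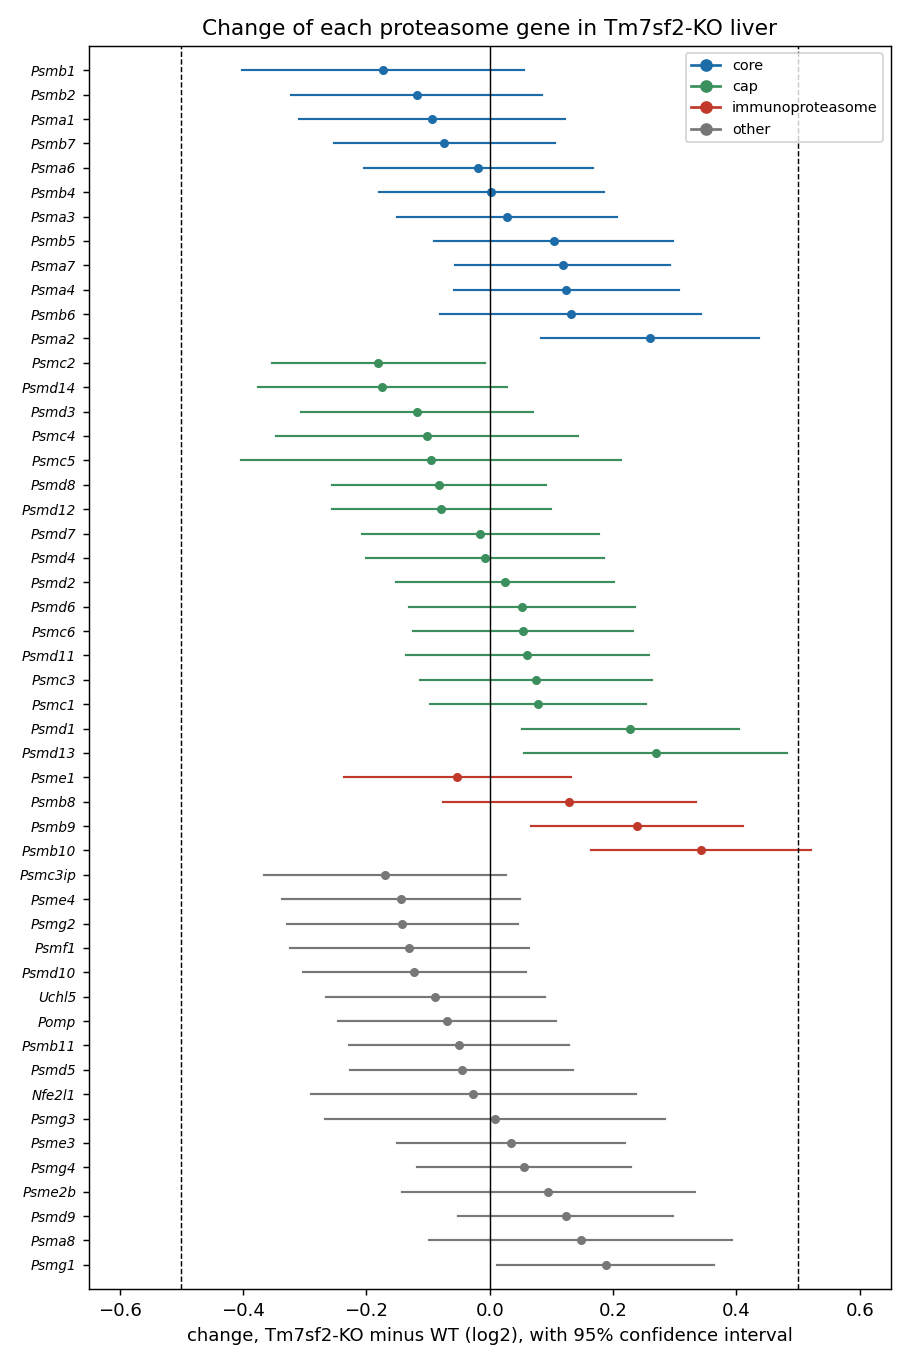
Change of each of the 50 proteasome genes (x axis, KO minus WT, log2, relative to the bulk of genes) with its 95% confidence interval from limma, coloured by section and with dashed lines at a change of 0.5 in either direction. The points lie between -0.18 and 0.34, and only the interval of Psmb10 crosses a dashed line.

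The core, the cap and the immunoproteasome differed in where their medians lay. The 12 core genes had a median change of 0.02 (range -0.17 to 0.26) and the 17 cap genes one of -0.01 (-0.18 to 0.27), against 0.01 over all named genes. The 4 immunoproteasome genes had a median of 0.18 (-0.05 to 0.34), which was -0.21 with the arrays centred on hybridization controls, against -0.38 for the core and -0.40 for the cap. As the median distance of each array from the gene's own mean, the immunoproteasome stood at -0.08 and -0.10 on the WT arrays and at 0.13 and 0.04 on the KO arrays. The core stood at -0.05 and 0.00 in WT and 0.04 and 0.00 in KO, and the cap at -0.01 and 0.02 in WT and 0.01 and -0.03 in KO. The genotypes did not overlap in the immunoproteasome and did in the core and the cap. Over all named genes they did not overlap either, at -0.0069 and -0.0026 in WT and 0.0072 and 0.0019 in KO. Of the 4 immunoproteasome genes, 2 overlapped when taken singly, Psmb8 and Psme1. The section medians come from 4, 12 and 17 genes on shared arrays, and the difference between sections was not tested. Without WT replicate 2 the cap median was 0.00345 and without Tm7sf2-KO replicate 2 it was 0.05, so its sign rests on single arrays.

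Among the catalytic subunits of the immunoproteasome, Psmb10 was the member with the lowest p of all 50. Psmb10, on chromosome 8, encodes the subunit that cuts after basic residues in place of Psmb7. It read 8.95 and 9.02 in WT and 9.29 and 9.36 in KO, a change of 0.34 (SE 0.08, 95% confidence interval 0.16 to 0.52, 1.27-fold, limma adjusted p = 0.0873). Both KO arrays were above both WT arrays, and the change missed both thresholds. Psmb9, on chromosome 17 beside the Tap genes, replaces Psmb6. It read 8.08 and 8.10 in WT and 8.33 and 8.33 in KO, a change of 0.24 (SE 0.08, interval 0.07 to 0.41, adjusted p = 0.216), again with no overlap. Psmb8, also on chromosome 17, replaces the chymotrypsin-like subunit Psmb5. It read 8.72 and 8.66 in WT and 8.92 and 8.72 in KO, a change of 0.13 (SE 0.09, interval -0.08 to 0.33, adjusted p = 0.622), and its second KO array lay within the WT values.

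The constitutive subunits at the same positions gave changes of 0.13 or less in size. Psmb7, the trypsin-like subunit, read 11.74 and 11.65 in WT and 11.63 and 11.62 in KO, a change of -0.07 (SE 0.08, adjusted p = 0.776), with the KO arrays just below the WT arrays. Psmb6, the caspase-like subunit, read 10.47 and 10.69 in WT and 10.66 and 10.76 in KO, a change of 0.13 (SE 0.09, adjusted p = 0.628), and the genotypes overlapped. Psmb5 read 10.71 and 10.82 in WT and 10.93 and 10.81 in KO, a change of 0.10 (SE 0.09, adjusted p = 0.687), and overlapped as well.

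The log2 ratio of each replacing subunit to the one it replaces was then taken within each array, relative to the WT mean. The ratio of Psmb10 to Psmb7 was -0.08 and 0.08 in WT and 0.38 and 0.45 in KO, a difference of 0.42 with no overlap. The ratio of Psmb9 to Psmb6 was 0.10 and -0.10 in WT and 0.16 and 0.06 in KO, a difference of 0.11. That of Psmb8 to Psmb5 was 0.09 and -0.09 in WT and 0.07 and -0.02 in KO, a difference of 0.03. The last 2 pairs overlapped between genotypes, and the difference between pairs was not tested. Such ratios do not depend on the centring of the arrays. With 2 arrays a side, the smallest two-sided p an exact permutation can reach is 0.333, so no test was run on them.

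**Figure D2:**
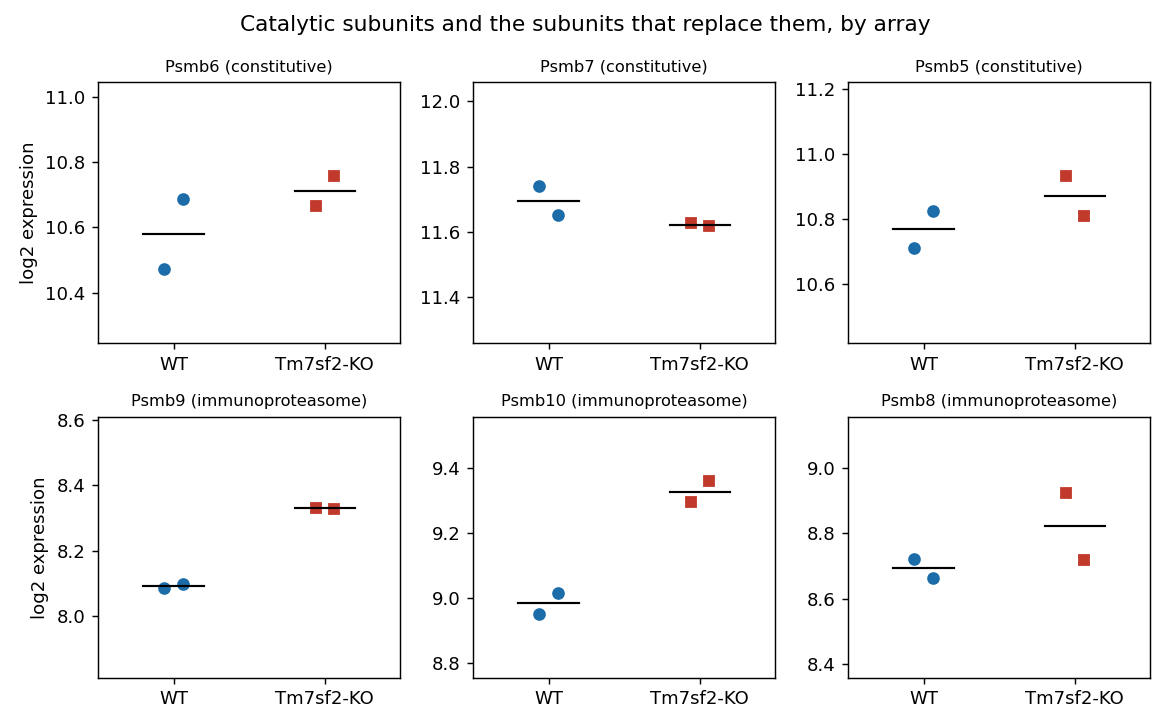
Level of the 3 constitutive catalytic subunits and of the 3 that replace them (y axis, log2 expression) on each array, circles for WT, squares for Tm7sf2-KO and bars for the mean of 2 arrays, with a y axis of equal span in each panel. The KO squares stand clear above the WT circles for Psmb9 and Psmb10, overlap them for Psmb8, Psmb5 and Psmb6, and lie just below them for Psmb7.

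Psme1, a subunit of the interferon-induced activator PA28 that opens the barrel without ubiquitin, was the 1 immunoproteasome gene below 0. It read 10.30 and 10.39 in WT and 10.34 and 10.25 in KO, a change of -0.05 (SE 0.08, adjusted p = 0.858), with overlap. A gene named Psme2b, a copy of the partner subunit whose probe set may take up signal of the parent gene, changed by 0.10 (adjusted p = 0.782) and overlapped too.

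Immunoproteasome levels can follow immune cells in the tissue, so leukocyte markers stand beside these values. Of 22 listed markers 21 were measured, with a median change of 0.01, and 9 of them had a mean level below 7, near the array median. H2-Aa, a MHC class II chain, rose from 9.19 and 9.20 to 10.25 and 10.21 (change 1.03, SE 0.08, adjusted p = 0.000371), and S100a8, a neutrophil protein, fell from 7.32 and 7.35 to 6.64 and 6.70 (change -0.67, SE 0.08, adjusted p = 0.00449). Another class II chain, H2-Ab1, read 7.91 and 8.11 in WT and 8.38 and 8.54 in KO (change 0.45, adjusted p = 0.0683), and S100a9, the partner of S100a8, changed by -0.28 (adjusted p = 0.164). No other measured marker had an unadjusted p under 0.05, and none but H2-Aa and S100a8 passed both thresholds. The summed linear signal of all 21 was 6097 and 6123 in WT and 6674 and 6806 in KO. Without H2-Aa, a choice made after its value was seen, it was 5511 and 5535 in WT and 5455 and 5624 in KO, and the genotypes overlapped. What part immune cells have in the immunoproteasome values was not tested.

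The alpha ring, which gates the entrance to the barrel, was measured at 6 of 7 genes and had a median change of 0.07. Psma2, on chromosome 13, stood out from the ring. It read 10.31 and 10.29 in WT and 10.52 and 10.60 in KO, a change of 0.26 (SE 0.08, interval 0.08 to 0.44, adjusted p = 0.188). Psma4 read 11.42 and 11.53 in WT and 11.58 and 11.62 in KO (change 0.12, SE 0.08, adjusted p = 0.585), and Psma7 read 9.87 and 9.91 in WT and 10.02 and 9.99 in KO (change 0.12, SE 0.08, adjusted p = 0.587). In these 3 genes the KO arrays were above the WT arrays, and a second Psma7 probe set gave 0.23 (adjusted p = 0.248). Psma3 (0.03), Psma6 (-0.02) and Psma1 (-0.09) overlapped between genotypes.

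The beta ring, which holds the cutting sites, had a median of -0.04 over 6 of 7 genes. Of its structural members, Psmb1 read 10.69 and 10.97 in WT and 10.69 and 10.63 in KO (change -0.17, SE 0.10, adjusted p = 0.538). The difference rests on the second WT array, since the first WT array and the first KO array read alike. Psmb2 read 9.89 and 9.86 in WT and 9.86 and 9.65 in KO (change -0.12, SE 0.09, adjusted p = 0.655), with 1 low KO array, and Psmb4 changed by 0.00 (adjusted p = 0.994).

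In the cap, the 6 ATPases that unfold the substrate had a median of -0.02. Psmc2, on chromosome 5, was the 1 member lower in KO at an unadjusted p under 0.05. It read 10.90 and 10.89 in WT and 10.70 and 10.73 in KO, a change of -0.18 (SE 0.08, interval -0.35 to -0.01, adjusted p = 0.363). A second Psmc2 probe set, with a mean of 10.45, gave 0.15 (adjusted p = 0.534), higher on both KO arrays, so the probe sets of this gene went opposite ways. Psmc1 read 9.85 and 9.84 in WT and 9.89 and 9.95 in KO (change 0.08, SE 0.08, adjusted p = 0.751). Psmc4 read 9.790 and 9.996 in WT and 9.660 and 9.923 in KO (change -0.10, SE 0.11, adjusted p = 0.774). Psmc3 (0.07), Psmc6 (0.05) and Psmc5 (-0.10) overlapped between genotypes, and the KO arrays of Psmc5, at 9.94 and 9.49, were the furthest apart in the ring.

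The base of the cap also holds scaffolds and ubiquitin receptors. Psmd1, a large scaffold encoded on chromosome 1, read 10.14 and 10.18 in WT and 10.36 and 10.41 in KO, a change of 0.23 (SE 0.08, interval 0.05 to 0.40, adjusted p = 0.246), with no overlap. Psmd4, a receptor for ubiquitin chains, read 10.62 and 10.78 in WT and 10.69 and 10.70 in KO (change -0.01, SE 0.09, adjusted p = 0.985). Psmd2, the other large scaffold, was read at a single probe set near the array median, 6.16 and 6.23 in WT and 6.21 and 6.23 in KO (change 0.02, SE 0.08, adjusted p = 0.938). At that brightness the probe set can say little about the gene.

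The lid, whose subunit Psmd14 cuts the ubiquitin chain from the substrate, had a median of -0.05 over 8 genes. Psmd14 read 9.94 and 10.07 in WT and 9.91 and 9.76 in KO (change -0.17, SE 0.09, adjusted p = 0.468). Psmd3, a structural lid subunit, read 9.17 and 9.32 in WT and 9.13 and 9.12 in KO (change -0.12, SE 0.08, adjusted p = 0.625), and both genes were lower on both KO arrays. Psmd13, another structural subunit, went the other way, with 8.55 and 8.52 in WT and 8.68 and 8.92 in KO. Its change was 0.27 (SE 0.09, interval 0.06 to 0.48, adjusted p = 0.259), while its second probe set gave 0.00 (adjusted p = 0.999). Psmd8 (-0.08) and Psmd12 (-0.08) were lower on both KO arrays. Psmd11 (0.06), Psmd6 (0.05) and Psmd7 (-0.02) overlapped, and the second Psmd6 probe set gave 0.22 (adjusted p = 0.28). The next Psmd11 probe sets by brightness, with means of 9.84 and 9.35, gave 0.15 and 0.16 and were higher on both KO arrays. The dimmest, with a mean of 6.89, gave -0.08.

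**Figure D3:**
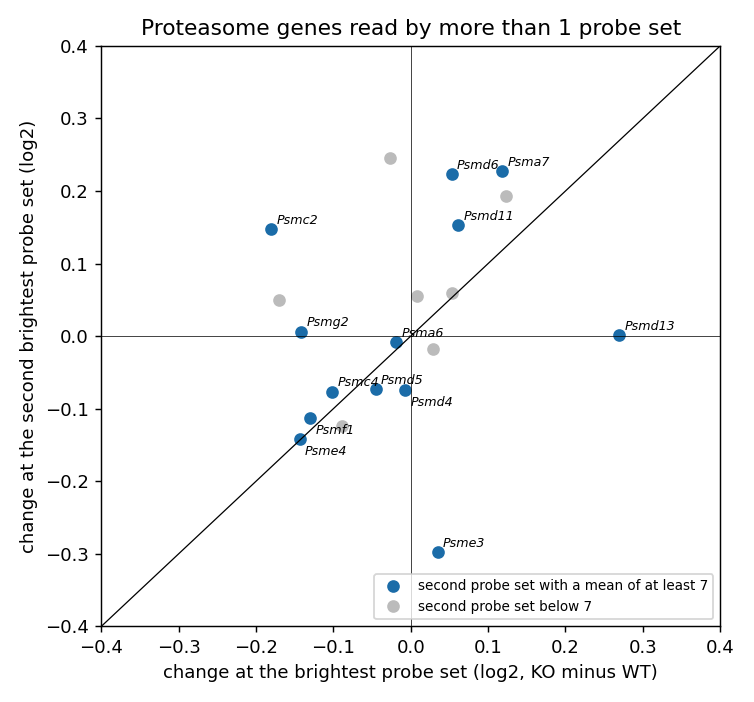
Change at the second brightest probe set (y axis) against that at the brightest (x axis), both KO minus WT in log2 and relative to the bulk of genes, for the 20 proteasome genes with more than 1, with the diagonal as the line of equality and second probe sets with a mean under 7 in grey. Of the 13 genes in blue, Psmc2, Psme3 and Psmg2 have probe sets of opposite sign, and Psmd13 lies at 0.27 on 1 axis and 0.00 on the other.

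Where 2 probe sets with a mean of at least 7 read the same gene, they bounded how well 1 probe set speaks for it. This held for 13 of the 20 genes with several, and 10 of them had the same sign at both. The median difference between the 2 changes was 0.0918 in size, about as large as the median change itself.

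The factors that build the proteasome had a median of -0.02 over 8 genes, 3 of them higher (37.5%, against 24% of all named genes) and 3 lower (37.5%, against 19.9%) on both KO arrays. Among named genes with a mean level of at least 7, as all 8 had, these shares were 29.3% and 23.5%. Psmg1, a chaperone of the alpha ring encoded on chromosome 16, read 9.28 and 9.31 in WT and 9.52 and 9.45 in KO, a change of 0.19 (SE 0.08, interval 0.01 to 0.36, adjusted p = 0.351). Psmg2, its binding partner, read 8.87 and 8.96 in WT and 8.72 and 8.82 in KO (change -0.14, SE 0.08, adjusted p = 0.536), with 0.01 at a second probe set. The 2 partners thus lay on opposite sides of 0, with neither past the test. Psmd9, a chaperone of the base, read 8.23 and 8.18 in WT and 8.32 and 8.34 in KO (change 0.12, SE 0.08, adjusted p = 0.571). Pomp, which is needed to complete the core and is itself destroyed by it, read 10.98 and 11.06 in WT and 10.96 and 10.95 in KO (change -0.07, SE 0.08, adjusted p = 0.79). Of the remaining assembly factors, Psmd10 (-0.12) was lower and Psmg4 (0.06) higher on both KO arrays, and Psmd5 (-0.05) and Psmg3 (0.01) overlapped.

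The regulators gave no change past the thresholds. Nfe2l1, on chromosome 11, read 8.37 and 8.11 in WT and 8.07 and 8.35 in KO, a change of -0.03 (SE 0.12, interval -0.29 to 0.24, adjusted p = 0.954). Its replicates differed by more than the genotypes did. A dimmer Nfe2l1 probe set, with a mean of 6.78, gave 0.25 (adjusted p = 0.25). Uchl5, which trims ubiquitin chains on the cap, read 8.83 and 8.85 in WT and 8.79 and 8.71 in KO (change -0.09, SE 0.08, adjusted p = 0.715). Psmf1, known as an inhibitor of the core in vitro, changed by -0.13 (adjusted p = 0.593) and was lower on both KO arrays.

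The activators outside the immune set were Psme3, the nuclear PA28 gamma, and Psme4, the single-chain activator PA200. Psme3 changed by 0.03 (adjusted p = 0.913) at its brightest probe set and by -0.30 (adjusted p = 0.194) at the other, whose mean was 7.66. Psme4 changed by -0.14 (adjusted p = 0.546), and its remaining probe sets gave -0.14, -0.04 and -0.07. Psma8 (0.15), a core subunit of the testis, and Psmb11 (-0.05), the subunit of thymic epithelium, had mean levels of 6.49 and 6.45, near the array median, and overlapped between genotypes. Psmc3ip (-0.17) met the naming rule but encodes a meiotic recombination factor and no proteasome subunit.

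Genes that work around the proteasome were set beside it from lists, chosen like the members with earlier results of these data known. Of 45 genes that attach ubiquitin or deliver substrates, 41 were measured, with a median of -0.07, and 0 passed both thresholds. At 5% FDR 0 were higher and 1 lower, against 0.923% and 0.831% of all named genes. At an unadjusted p under 0.05 there were 3 higher (7.32%, against 8.39% of all named genes) and 11 lower (26.8%, against 6.79%). Among named genes with a mean level of at least 7, where all but 1 of the 41 lie, these shares were 12.7% and 9.94%. Ube2l3, the ubiquitin-conjugating enzyme that serves HECT and RBR ligases, was the 1 past 5% FDR. It read 9.77 and 9.70 in WT and 9.28 and 9.32 in KO, a change of -0.44 (SE 0.08, adjusted p = 0.0341), larger in size than that of any proteasome gene.

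The list around Nfe2l1 has 13 genes, which are its controllers, the Maf partner factors, and Nfe2l2 with its regulator Keap1. Of these, Sel1l and Syvn1 passed 5% FDR, both lower (against 0.831% of all named genes), and 0 were higher (against 0.923%). They form the ligase of the endoplasmic reticulum that passes Nfe2l1 to the cytosol and degrades misfolded proteins. Syvn1 read 9.452 and 9.483 in WT and 8.995 and 9.022 in KO, a change of -0.46 (SE 0.08, adjusted p = 0.0267), just short of the size threshold. Sel1l fell from 9.83 and 9.76 to 9.20 and 9.33 (change -0.53, SE 0.08, adjusted p = 0.0201). The other 11 included Ddi2, the protease that activates Nfe2l1 (0.23, adjusted p = 0.25), and the related factor Nfe2l2 (0.30, adjusted p = 0.128). The list as a whole had a median of 0.04, with 4 higher (30.8%, against 8.39% of all named genes) and 2 lower (15.4%, against 6.79%) at an unadjusted p under 0.05. Among named genes with a mean level of at least 7, where all but 1 of the 13 lie, these shares were 12.7% and 9.94%. The 4 higher genes were Ddi2, Ogt, Nfe2l2 and Mafk, so the count is not one of controllers alone.

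In the 13 genes of MHC class I loading, the step that uses proteasome peptides, the median was -0.05, with 0 past both thresholds. At 5% FDR 0 were higher and 1 was lower (against 0.923% and 0.831% of all named genes). That gene was Calr, a chaperone of the loading complex, at 12.95 and 12.96 in WT and 12.49 and 12.57 in KO (change -0.42, SE 0.08, adjusted p = 0.04). Of the 13 changes 10 were below 0. At an unadjusted p under 0.05 there were 2 higher (15.4%, against 8.39% of all named genes) and 2 lower (15.4%, against 6.79%). Among named genes with a mean level of at least 7, as all 13 had, these shares were 12.7% and 9.94%. The 2 lower genes of the list were Calr and Pdia3 (-0.38, adjusted p = 0.0723), its partner in the loading complex. The higher ones were Nlrc5 (0.34, adjusted p = 0.104) and Irf1 (0.26, adjusted p = 0.209), transcription factors that act on class I and immunoproteasome genes. Tap1 (-0.05) and Tap2 (0.00), the peptide transporter encoded next to Psmb9 and Psmb8, were not among them.

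**Figure D4:**
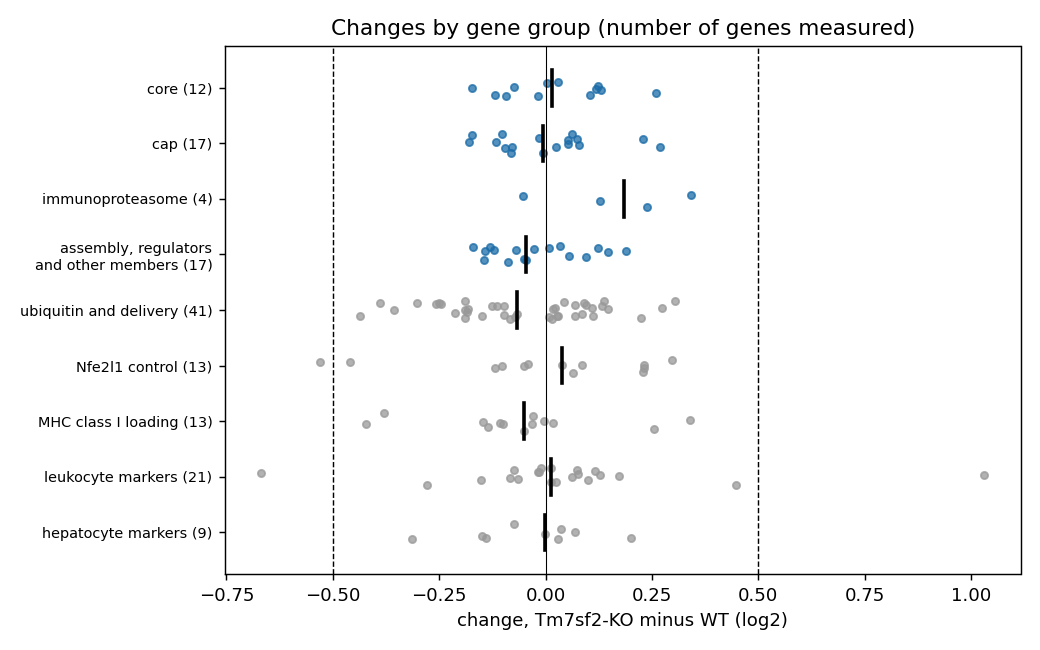
Change of each gene (x axis, KO minus WT, log2, relative to the bulk of genes) in 4 groups of proteasome genes (blue) and in the lists set beside them (grey), with the median of each as a black bar and dashed lines at 0.5 in either direction. No proteasome gene reaches a dashed line, the immunoproteasome bar stands at 0.18, and Sel1l, S100a8 and H2-Aa are the points beyond the lines.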

How the data were processed

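Liver RNA of 2 WT and 2 Tm7sf2-KO arrays was compared, grouped by the sample labels. The values deposited by the authors are log2 expression values, 1 per probe set and array, quantile-normalised according to the study's methods. Of the tools, affy and limma appear in the submitters' processing notes, with no version. For the background correction, the probe summary and the genome build, the tool and settings are not given in the sources. Names and chromosomes of genes were read from the authors' comparison table, whose deposited log2 ratios of KO over WT and adjusted p-values were not used.

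After 64 control probe sets were left out, 45037 probe sets were tested two-sided by lmFit and eBayes of limma (version 3.58.1, under R version 4.3.3) without covariates, with Benjamini-Hochberg adjustment over all of them. Thresholds were those of the study's methods, an adjusted p under 0.05 and a log2 change of at least 0.5. Residual degrees of freedom were 2 and prior degrees of freedom 7.30. Arrays give no counts, so their number limits the precision. Error terms are the SE and 95% confidence interval of the moderated variance.

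Every member is named with its change. Array values were given for the catalytic subunits, Psme1, Pomp, Nfe2l1, Uchl5 and the 3 members with the smallest p in each structural or assembly class, and from each companion list for genes past 5% FDR. A few genes past this rule are named with their change alone. Most genes of the companion lists enter only the counts. Members and lists were chosen with earlier results of these data known. Alternatives covered normalization, variance prior, dim probe sets (mean under 7), replicate block, left-out arrays, probe set choice and control centring. The scripts were tested on simulated data. Promoter letters are from RefSeq tables, and none is shown for genes whose window was not matched.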

Additional observations from a re-analysis of the deposited data

How the results depend on the processing

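The absence of a proteasome gene past both thresholds held under a second quantile normalization, median centring, a variance trend, a robust prior, the filter at a mean of 7, the replicate block, averaged probe sets and testing named genes only. Centring on hybridization controls, which lay 0.393 higher in KO, gave 10 lower past both thresholds (20%, against 18.2% of all named genes), 43 lower at 5% FDR (86%, against 86%), and 0 higher and 44 lower at an unadjusted p under 0.05 (88% lower, against 87%). Of all probe sets, 24 were then higher and 7700 lower past both thresholds. At 5% FDR alone, 1 member, Psmb10, was higher with the filter at a mean of 7 (adjusted p = 0.0346) and with averaged probe sets (adjusted p = 0.043), and its adjusted p was 0.126 with the replicate block. The block left 0 members lower at an unadjusted p under 0.05, as did averaged probe sets. The replicate numbers did not pair the arrays (correlation of same-numbered deviations -0.0368 over all probe sets). With only the brightest probe set of each named gene tested, 106 of these passed both thresholds as higher, against 171 of all probe sets.

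Leaving out any 1 array left 0 probe sets past both thresholds by limma in either direction, Tm7sf2 gave -2.79 to -2.70 (adjusted p = 0.518 to 0.662), and 3 to 5 members were higher and 0 to 1 lower at an unadjusted p under 0.05. Median changes ran from -0.0300 to 0.0481 for the cap and from 0.13 to 0.24 for the immunoproteasome. Since no probe set could be called there, these fits say nothing about whether the calls are stable. All 215 values of the 27 genes given by array stayed short of the thresholds under the 8 settings that kept 4 arrays, control centring apart. Where a setting keeps the changes as in the main fit, this was fixed in advance. With 2 residual degrees of freedom, small changes were not detectable. The intervals given are those of single genes, without adjustment over all probe sets. In the main fit Psmb10, Psma2, Psmb9, Psmd1, Psmd13, Psmg1 and Psmc2 had intervals that excluded 0 and were not called. The intervals thus understate the change needed for a call.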
